A study of Saturnispora dispora and Saturnispora hagleri and Saturnispora mendoncae with 16 samples.

Results

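The alcohol dehydrogenase orthogroup (*ADH*, OG0000019) was followed in 4 species of the yeast genus *Saturnispora*. It is 1 of 5029 orthogroups with a deposited value, in TPM (transcripts of a gene relative to all transcripts, scaled to a constant sum). Its members are the genes whose summed counts had the proportions of the orthogroup's TPM over the 4 libraries of a species. These were 3 genes in each species, 12 of the 20143 genes counted in all: 3 of 5057 in *Sat. dispora* (Sdis), 3 of 5156 in *Sat. hagleri* (Shag), 3 of 4926 in *Sat. mendoncae* (Smen) and 3 of 5004 in *Sat. silvae* (Ssil). No other gene had the same counts as any of the 12. The questions asked of them were which copy carried most of the *ADH* signal and whether any copy went with the extracellular acidification rate (ECAR), the measure of glycolytic rate by which the species had been classed.

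Sdis and Shag are the rapid ECAR species and were collected 15 h after inoculation, whereas Smen and Ssil are the low ECAR species, collected at 18 h. The hours differed so that cultures of both classes were in mid-log phase, by the study's methods. The ECAR class, the hour of collection and the descent of the species cannot be told apart in this design. All 16 libraries, 4 biological replicates of each species, were made from poly(A) RNA of cells growing on glucose. The cultures (50 ml, 2% glucose, synthetic complete medium) started at an OD600 of 0.05 and were shaken at room temperature in baffled flasks of 250 ml at 225 rpm. The files show only the growing phase, and no culture on another carbon source was analysed here. Between 6196684 and 13928456 counts per library fell in genes. Shag replicate 3 lay farthest from its species mean, with an SD of 0.43 on the log2 scale over the orthogroups tested, against 0.087 to 0.34 in the other 15 libraries.

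Alcohol dehydrogenase reduces acetaldehyde to ethanol and oxidizes NADH to NAD+, the last step of alcoholic fermentation, and it runs in the other direction when ethanol is consumed. Yeasts often carry several copies with different tasks. In *Saccharomyces cerevisiae*, Adh1p makes ethanol during growth on glucose, Adh2p is repressed by glucose and oxidizes ethanol, and Adh3p works in the mitochondria. The files do not tell which of these roles a *Saturnispora* copy has, and no sequence of the genes was used here.

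The 3 copies of each species were matched between species by the genes around them, since gene numbers follow the order of genes. Of the single-gene orthogroups shared by any pair of species, 98.7% to 99.8% had at least 3 orthogroups in common among the 10 linked genes on each side, with a median of 17 to 19. By this rule 15 pairs of copies were made, and no copy shared a neighbour with more than 1 copy of another species.

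Copy A is g003328 in Sdis, g001303 in Shag and g003303 in Smen. It had 20 neighbouring orthogroups in common between Sdis and Shag and 11 between Smen and either of them. The remaining gene of Ssil, g000805, shared only 2 neighbours with copy A of each other species, under the minimum of 3, and none with any other copy. These 2 were OG0000786 and OG0000787, which lie 1 and 2 gene numbers from g000805 in Ssil, 1 and 2 from copy A in Smen and 2 and 3 from copy A in Sdis and Shag. On the other side, OG0000785 is the next gene to copy A in Sdis, Shag and Smen, but lies 1281 gene numbers from g000805 in Ssil. The Ssil gene was therefore joined to copy A only in an added comparison, chosen after seeing the data, and every value that sets Ssil against another species for copy A rests on it. Of the *ADH* genes counted here, those that the study names by ID are g003328, g001303 and g000805. It names neither g003303 of Smen nor a gene of the other copies.

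Copy B is g000155 in Sdis, g002885 in Shag, g002154 in Smen and g003490 in Ssil. It lies 1 gene number from *FBA*, the gene of fructose-bisphosphate aldolase, in Smen and 2 from it in Sdis, Shag and Ssil. The species had 18 to 20 of its neighbours in common. Copy C is g003257 in Sdis, g005126 in Shag, g000946 in Smen and g004748 in Ssil. Shag, Smen and Ssil had 17 or 18 of its neighbours in common with each other and 7 to 9 with Sdis.

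Copy A carried most of the *ADH* counts in all 4 species, with g000805 taken as copy A of Ssil. Its share was 98.6% to 99.0% in Sdis, 97.3% to 97.6% in Shag, 72.0% to 75.2% in Smen and 98.1% to 98.4% in Ssil. In Smen the other copies together made up 24.8% to 28.0%, against 1.64% to 1.90% in Ssil, 2.39% to 2.74% in Shag and 1.02% to 1.39% in Sdis. The share of copy A in Smen was below that of every library of the other species, and the 95% Wilson interval of its lowest library began at 71.2%. These intervals cover counting error only.

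**Figure D1:**
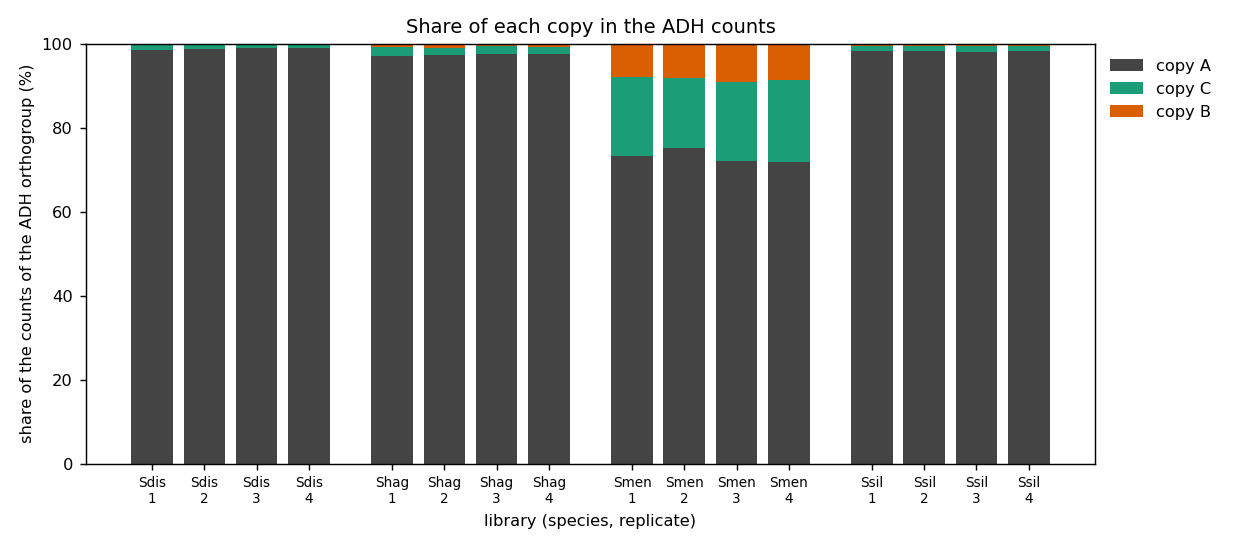
Share of each copy in the counts of the *ADH* orthogroup, in percent, for each of the 16 libraries (species and replicate number below each bar). Copy A fills 97.3% or more of each bar in Sdis, Shag and Ssil and 72.0% to 75.2% in Smen, where copies C and B are visible above it.

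Copy C came second in each library. Its share of the counts was 1.01% to 1.39% in Sdis, 1.71% to 1.99% in Shag, 16.6% to 19.5% in Smen and 1.26% to 1.48% in Ssil. Copy B had the smallest share, 0.0079% to 0.016% in Sdis, 0.54% to 0.99% in Shag, 7.76% to 9.17% in Smen and 0.37% to 0.42% in Ssil. Counts of copies within a species are not divided by the length of each copy, which was not known. The 3 lengths sum to 1092 codons in Sdis, 1092 in Shag, 1097 in Smen and 1093 in Ssil. Copy A exceeded copy C at least 3.70-fold in counts, its lowest ratio in any library, found in Smen.

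Read pairs that fit several genes were shared among them in fractions, so near-identical copies could exchange counts. In Sdis, copy B had 8, 9, 15 and 7 counts beside 79587 to 100450.5 counts of copy A, or 0.0080% to 0.016% of them. In the other species copy B had a larger percentage of the counts of copy A, 0.55% to 1.01% in Shag, 10.6% to 12.7% in Smen and 0.37% to 0.43% in Ssil, and copy C had 22.1% to 27.1% in Smen. Counts of copy A were whole numbers in 1 library of Sdis, 1 of Shag, 3 of Smen and 2 of Ssil. Counts of copy B were whole numbers in all 4 libraries of Sdis, Shag and Smen and in 3 of Ssil. Counts of copy C were whole in all 4 libraries of Sdis and Shag, in 2 of Smen and in 3 of Ssil. Fractions of shared pairs were thus part of the copy C count in at least 2 Smen libraries. A whole count does not exclude shared pairs, since fractions can add up to a whole number. In Smen replicate 4, copy C had 2513.5 counts, while copies A and B had whole counts of 9290 and 1105. The summed count of the 3 copies was whole in 1 library of Sdis, 1 of Shag, 3 of Smen and 0 of Ssil. Pairs shared among the copies alone would leave this sum whole. In the libraries without a whole sum, some pairs were therefore shared with genes outside the orthogroup. How many pairs were shared between copies, or with genes outside the orthogroup, was not tested.

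At the level of the orthogroup, *ADH* had 2256, 2087, 2600 and 2237 TPM in Sdis. The Shag libraries had 1184, 1221, 956 and 1257 TPM. It had 380, 404, 352 and 349 TPM in Smen, and 2594, 2416, 2213 and 2178 TPM in Ssil. The libraries of Sdis and Ssil overlapped, those of Shag lay below both, and those of Smen lay below all others. For Sdis the mean was 2295 ± 217 TPM and for Shag 1155 ± 136 TPM. For Smen it was 371 ± 26.0 TPM and for Ssil 2350 ± 193 TPM (SD, n = 4 each).

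**Figure D2:**
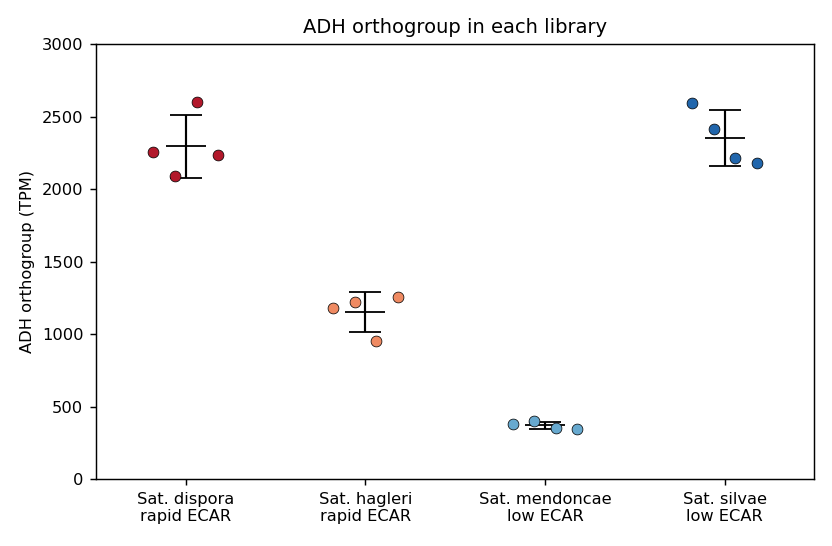
TPM of the *ADH* orthogroup (vertical axis) in the 4 libraries of each species, with the mean and SD as bars. The low ECAR species *Sat. silvae*, at 2178 to 2594 TPM, overlaps the rapid ECAR species *Sat. dispora*, at 2087 to 2600 TPM, and the low ECAR species *Sat. mendoncae* is lowest at 349 to 404 TPM.

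Because the TPM of an orthogroup divides summed counts by summed lengths, a group of 3 copies with 1 active copy is placed well under that copy's own level. By TPM, *ADH* ranked from 101 to 112 of 4812 orthogroups in Sdis, from 163 to 179 of 4840 in Shag, from 387 to 434 of 4615 in Smen and from 42 to 53 of 4611 in Ssil, where 1 is the highest. With copy A set at the mean copy length, its own value ranked from 13 to 25 in Sdis, from 26 to 94 in Shag, from 208 to 248 in Smen and from 13 to 14 in Ssil. The other orthogroups kept their TPM over all their genes in this ranking, which favours copy A. Between 105 and 139 linked orthogroups per species held several genes.

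Species were compared with limma on log2(TPM + 1) over 4232 orthogroups, with Benjamini-Hochberg adjustment over all of them. Differences are given on this log2 scale, the first-named species minus the second. *ADH* differed in 5 of the 6 pairs of species. It was higher in Sdis than in Shag by 0.99 ± 0.10 (SE, adjusted p = 4.69e-07), where 16.8% of all orthogroups were called higher in Sdis. Against Smen, it was higher in Sdis by 2.62 ± 0.10 (adjusted p = 8.13e-13; 26.4% called higher) and in Shag by 1.63 ± 0.10 (adjusted p = 3.36e-10; 37.3% called higher). Against Ssil, it was lower in Shag by 1.03 ± 0.10 (log2 difference -1.03, adjusted p = 5.96e-08; 60.5% called lower) and in Smen with a log2 difference of -2.66 ± 0.10 (adjusted p = 3.40e-13; 62.1% called lower). Calls in either direction were thus common between these species. TPM is a share of the mRNA of a library and not an amount per cell.

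Between Sdis and Ssil the sign of the *ADH* difference depended on the scale. It was -0.04 ± 0.10 on the TPM scale (adjusted p = 0.741), while 89.8% of orthogroups were called in this pair in either direction. The median orthogroup was itself 1.06 lower on the log2 scale in Sdis than in Ssil (-1.06), and relative to it *ADH* was 1.03 higher. After rescaling the libraries by their median ratio, the difference was 1.04 ± 0.11 (adjusted p = 1.55e-07). With quantile normalization, which goes by rank, it was -0.83 (adjusted p = 6.38e-09). In the other pairs the median orthogroup differed by -0.68 to 0.06. The 5 called differences kept their sign and their call on each of these scales, with Shag minus Ssil the closest to 0, at -0.39 ± 0.11 after rescaling by the median ratio.

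The orthogroup did not follow the ECAR class. A class call needed each of the 4 pairs across classes to be called in 1 direction, which held for 26.5% of orthogroups. For *ADH*, both rapid species were above Smen, Shag was below Ssil, and Sdis did not differ from Ssil on the TPM scale. The mean difference of the rapid from the low ECAR species was 0.80 ± 0.07. This SE, like the other SEs of class differences, is over libraries and leaves out the spread between the 2 species of a class. With the 4 species means as samples the SE was 1.03 (limma adjusted p = 0.788). No class call was made in any of 29 settings, the TPM scale included.

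Copy A had 6674, 6192, 7718 and 6642 TPM in Sdis, each copy being set at the mean copy length of its orthogroup. It had 3453, 3565, 2800 and 3681 TPM in Shag. It had 837, 912, 761 and 755 TPM in Smen, and 7647, 7125, 6512 and 6428 TPM in Ssil. As for the orthogroup, Sdis and Ssil overlapped, and Shag and Smen stood apart from them and from each other. The lowest Shag library was replicate 3, and without it the difference of Sdis from Shag was 0.93.

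The tests of copy A gave 3 calls in the 3 pairs that the gene order rule allowed. It was 2.02-fold higher in Sdis than in Shag (log2 difference 1.02 ± 0.11, adjusted p = 3.31e-06), as 16.9% of the rows tested were higher in Sdis. It was 8.33-fold higher in Sdis than in Smen (3.06 ± 0.11, adjusted p = 1.43e-11; 26.4% of rows higher) and 4.12-fold higher in Shag than in Smen (2.04 ± 0.11, adjusted p = 1.04e-09; 37.3% of rows higher). The orthogroup as a whole was 6.16-fold higher in Sdis than in Smen. With the Ssil gene joined, copy A in Ssil differed from Sdis by -0.03 ± 0.11 (Sdis minus Ssil, adjusted p = 0.814; 89.8% of rows called in either direction), a sign that turned to 1.04 after rescaling by the median ratio. It was lower in Shag than in Ssil (-1.04 ± 0.11, adjusted p = 1.04e-07; 60.5% of rows lower) and lower in Smen than in Ssil (-3.08 ± 0.11, adjusted p = 1.10e-13), where 62.0% of the rows were lower in Smen. With this gene joined, copy A was not called by class, with a mean difference of 1.01 ± 0.07, in any of 29 settings. Over the 4 species means its SE was 1.24 (limma adjusted p = 0.777).

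**Figure D3:**
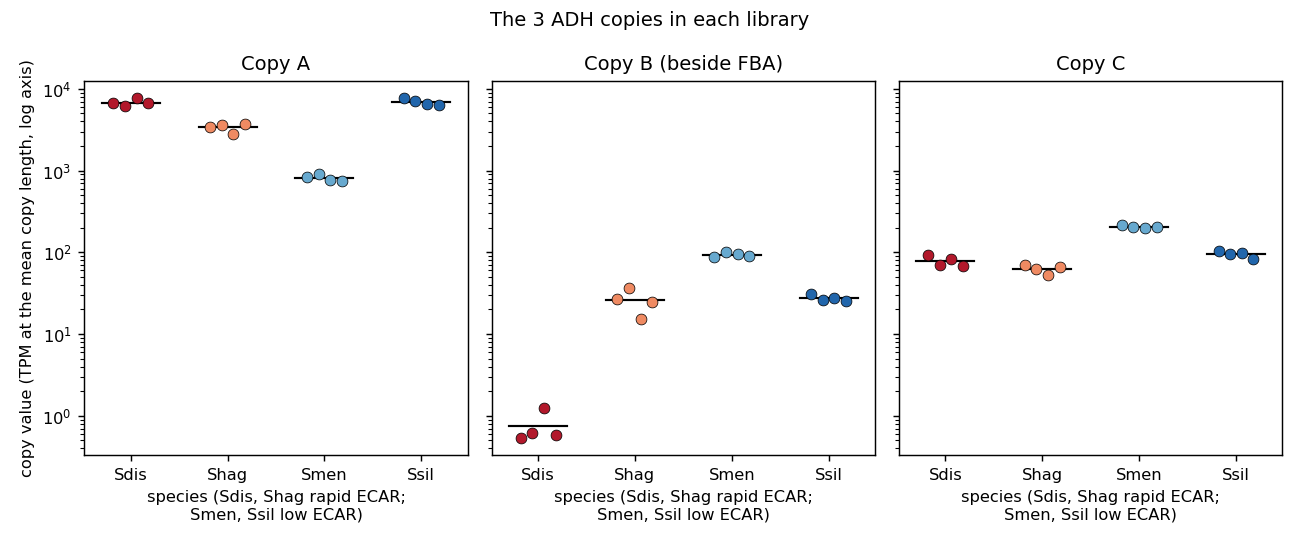
Value of copies A, B and C in each library, in TPM at the mean copy length, on a log axis, with the species mean as a line. Copy A is at 6192 TPM or more in Sdis and Ssil and at 755 to 912 TPM in Smen, copy B is between 0.53 and 1.24 TPM in Sdis, and copies B and C are highest in Smen.

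Copy B showed the widest range. It had 0.53, 0.61, 1.24 and 0.58 TPM in Sdis, from 7 to 15 counts per library. It had 26.7, 36.2, 15.4 and 25.0 TPM in Shag. It had 88.5, 99.6, 96.8 and 89.7 TPM in Smen, and 31.1, 26.5, 27.9 and 25.2 TPM in Ssil. Sdis lay below all others and Smen above all others, while the libraries of Shag spanned those of Ssil.

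Copy B was lower in Sdis than in Shag (-3.90 ± 0.19, adjusted p = 1.18e-10), in Smen (-5.78 ± 0.19, adjusted p = 1.18e-13) and in Ssil (-4.06 ± 0.19, adjusted p = 3.35e-12), where 57.2%, 51.2% and 69.9% of the rows tested were lower in Sdis in the same order. The sizes of these 3 differences depended on the pseudocount, since the Sdis value lies near 1 TPM. The difference of Sdis from Smen was -6.87 with a pseudocount of 0.1 and -3.27 with a pseudocount of 10. Copy B was also lower in Shag than in Smen (-1.88 ± 0.19, adjusted p = 1.60e-07) and higher in Smen than in Ssil (1.73 ± 0.19, adjusted p = 2.42e-07), where 32.4% of the rows were lower in Shag and 22.1% higher in Smen. Shag and Ssil were not separated (-0.15 ± 0.19, adjusted p = 0.460, with 83.1% of the rows called in either direction), and this sign turned to 0.46 after rescaling by the median ratio and to 0.065 without Shag replicate 3. Copy B was thus not called by class, although its mean difference of the rapid from the low ECAR species was -2.97 ± 0.13, and no call was made in its 28 settings. Over the 4 species means its SE was 1.30 (limma adjusted p = 0.565).

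The neighbour of copy B, *FBA*, was among the high orthogroups in each species. It averaged 8402 ± 466 TPM for Sdis and 10025 ± 603 TPM for Shag, against 1715 ± 66.9 TPM for Smen and 4285 ± 705 TPM for Ssil (SD, n = 4 each). The linked neighbour on the other side, OG0002241, averaged 27.0 TPM for Sdis, 30.7 TPM for Shag, 23.5 TPM for Smen and 15.8 TPM for Ssil.

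Copy C had 93.8, 69.6, 82.5 and 67.9 TPM in Sdis. It had 70.8, 62.6, 53.2 and 65.8 TPM in Shag. It had 215, 202, 197 and 204 TPM in Smen, and 105, 95.3, 98.4 and 82.2 TPM in Ssil. Smen lay above all other libraries, Sdis overlapped both Shag and Ssil, and Shag lay below Ssil.

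Copy C was the only copy that met the class rule on the TPM scale, where 20.9% of the rows tested were lower in the rapid ECAR species by the same rule. It was lower in Sdis (-1.38 ± 0.11, adjusted p = 1.04e-08, with 51.2% of the rows lower) and in Shag (-1.69 ± 0.11, adjusted p = 9.64e-10, with 32.4% lower) than in Smen. It was lower in Sdis (-0.28 ± 0.11, adjusted p = 0.0269, with 69.9% of the rows lower) and in Shag (-0.59 ± 0.11, adjusted p = 0.000141, with 60.5% lower) than in Ssil. These differences from Ssil were smaller than those of the median orthogroup, -1.06 and -0.63. Relative to the median orthogroup copy C was 0.78 higher in Sdis than in Ssil and 0.05 higher in Shag than in Ssil. After rescaling by the median ratio the difference of Sdis from Ssil was 0.78 ± 0.11, the opposite sign, and the class call was lost, as it was with quantile normalization, with CPM, with edgeR and with DESeq2. The mean difference of the rapid from the low ECAR species was -0.98 ± 0.08, with an SE of 0.65 over the 4 species means (limma adjusted p = 0.612).

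The class call of copy C also rested on single libraries. It was lost without Sdis replicate 2, Sdis replicate 4, Ssil replicate 1 or Ssil replicate 3, where Sdis minus Ssil was -0.23, -0.22, -0.23 and -0.26. Copy C was higher in Sdis than in Shag by 0.31 ± 0.11 (adjusted p = 0.0227, with 16.9% of the rows higher in Sdis) and higher in Smen than in Ssil by 1.10 ± 0.11 (adjusted p = 1.01e-07, with 22.1% of the rows higher in Smen). The first of these was not called without Sdis replicate 1 (0.22), Sdis replicate 3 (0.28) or Shag replicate 3 (0.23). Smen was above each other species for copy C on every scale tried.

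**Figure D4:**
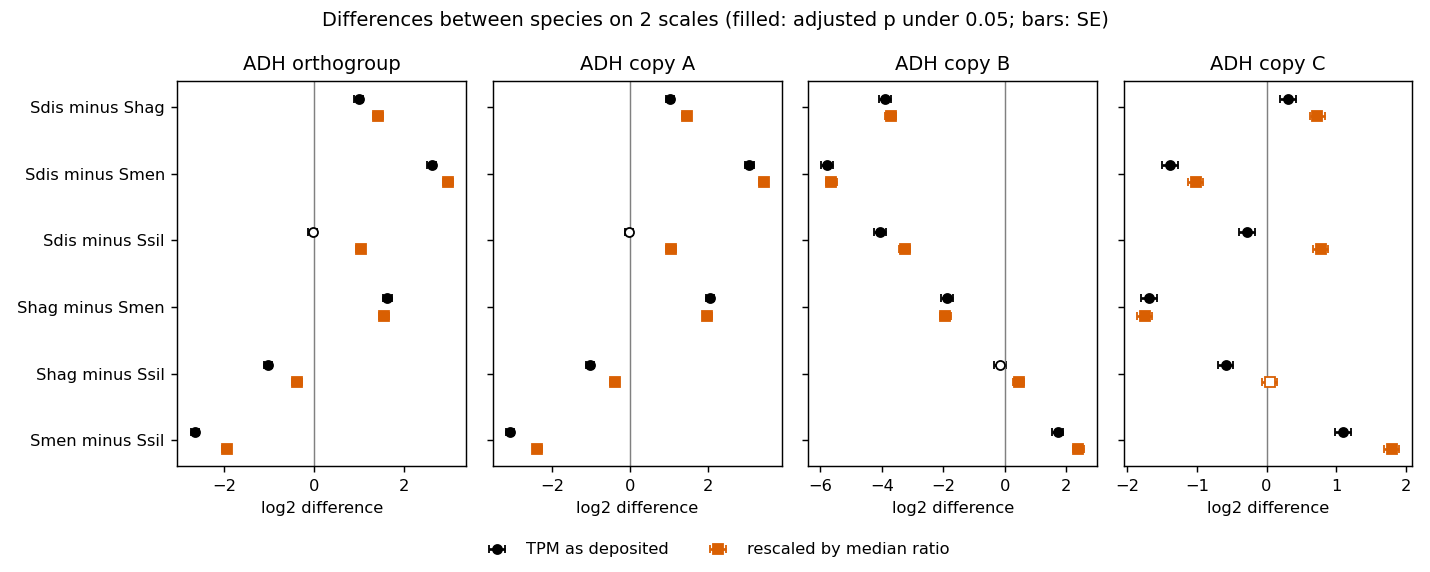
Log2 differences between species (horizontal axis, bars are SE) for the orthogroup and copies A, B and C, on the TPM scale as deposited (black circles) and after rescaling by the median ratio (orange squares), filled where the adjusted p was under 0.05. Sdis minus Ssil moves from -0.04 to 1.04 for the orthogroup and from -0.28 to 0.78 for copy C, while all differences that involve Smen keep their sign.

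Ratios of 2 copies within a library do not depend on how libraries are scaled. They were compared after seeing the data, in 18 exact two-sided permutation tests, where the smallest p that 4 against 4 libraries allow is 0.0286, or 0.0343 after adjustment. This was reached in 15 of the 18, and 73.9% of ratios between any 2 other orthogroups had species that did not overlap. Copy A over copy B was 6228 to 12556 in Sdis, 98.6 to 182 in Shag, 7.87 to 9.46 in Smen and 234 to 269 in Ssil, and no 2 species overlapped. Copy A over copy C was 71.1 to 97.8 in Sdis, 48.8 to 57.0 in Shag, 3.70 to 4.52 in Smen and 66.2 to 78.2 in Ssil, and only Sdis and Ssil overlapped (log2 difference 0.26 ± 0.11, exact permutation p = 0.114, adjusted p = 0.121). Copy C over copy B was 66.6 to 176 in Sdis, 1.73 to 3.46 in Shag, 2.02 to 2.43 in Smen and 3.26 to 3.60 in Ssil, where Shag overlapped both Smen and Ssil. In each of these ratios the low ECAR species did not stand together on one side of the rapid ECAR species.

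*ADH* was also set against other genes of the same library that the study names by gene ID. These were the hexose transporters (*HXT*), hexokinase (*HXK*), phosphofructokinase (*PFK*), *FBA*, triosephosphate isomerase (*TPI*), glyceraldehyde-3-phosphate dehydrogenase (*TDH*), phosphoglycerate mutase (*GPM*), enolase (*ENO*) and the transcription factor gene *GAL4*. *TPI* had no value in Sdis. Of 51 combinations of a gene and a pair of species, 47 reached the smallest exact permutation p, 0.0286 (adjusted p = 0.0310). For the other orthogroups tested, 81.5% of the same combinations had libraries that did not overlap, so separation from these genes was common. The 4 others were *GAL4* between Shag and Ssil, *GPM* and *HXT* between Shag and Smen, and *PFK* between Sdis and Ssil.

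Relative to the sugar uptake and upper glycolysis genes, *ADH* was highest in Ssil for *HXT* and *HXK*. *ADH* over *HXT* was 0.97 to 1.05 in Sdis, 0.43 to 0.50 in Shag, 0.50 to 0.57 in Smen and 9.98 to 12.5 in Ssil. *ADH* over *HXK* was 2.09 to 2.50 in Sdis, 0.85 to 0.96 in Shag, 1.18 to 1.34 in Smen and 12.7 to 13.7 in Ssil. In Ssil, *HXT* averaged 216 ± 6.38 TPM, against 2237 ± 155 TPM in Sdis. The low ECAR species had 2 *HXT* genes each, with summed lengths of 1121 codons for Ssil and 1077 for Smen. The rapid ECAR species had 1 each, at 530 codons for Sdis and 528 for Shag. Its TPM thus has a longer divisor in the low ECAR species, which also enters *ADH* over *HXT*. How the counts were split between the 2 genes was not tested. *ADH* over *PFK* overlapped between Sdis, at 4.03 to 4.91, and Ssil, at 4.09 to 4.38, with a log2 difference of 0.06 ± 0.07.

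Ssil also had the highest ratio of *ADH* to *ENO*, *FBA*, *GPM* and *TDH*. *ADH* over *ENO* was 0.17 to 0.19 in Sdis, 0.087 to 0.095 in Shag, 0.052 to 0.062 in Smen and 0.34 to 0.39 in Ssil. *ADH* over *FBA* was 0.26 to 0.29 in Sdis, 0.10 to 0.12 in Shag, 0.21 to 0.23 in Smen and 0.51 to 0.63 in Ssil. *ADH* over *GPM* was 0.27 to 0.31 in Sdis, 0.13 to 0.16 in Shag, 0.15 to 0.18 in Smen and 0.95 to 1.02 in Ssil. *ADH* over *TDH*, the highest of these genes, was 0.070 to 0.078 in Sdis, 0.034 to 0.038 in Shag, 0.018 to 0.022 in Smen and 0.092 to 0.098 in Ssil. Against *GAL4*, *ADH* was highest in Sdis, at 28.5 to 31.2, against 14.1 to 14.7 in Shag, 5.18 to 5.78 in Smen and at most 16.4 in Ssil.

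Since copy A carries most of the orthogroup, its own ratio to these genes was higher than that of the orthogroup. Copy A over *ENO* was 0.51 to 0.57 in Sdis, 0.25 to 0.28 in Shag, 0.11 to 0.14 in Smen and 1.01 to 1.15 in Ssil. With copy A in place of the orthogroup, 46 of the 51 combinations did not overlap, beside the same 81.5% for other orthogroups.

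**Figure D5:**
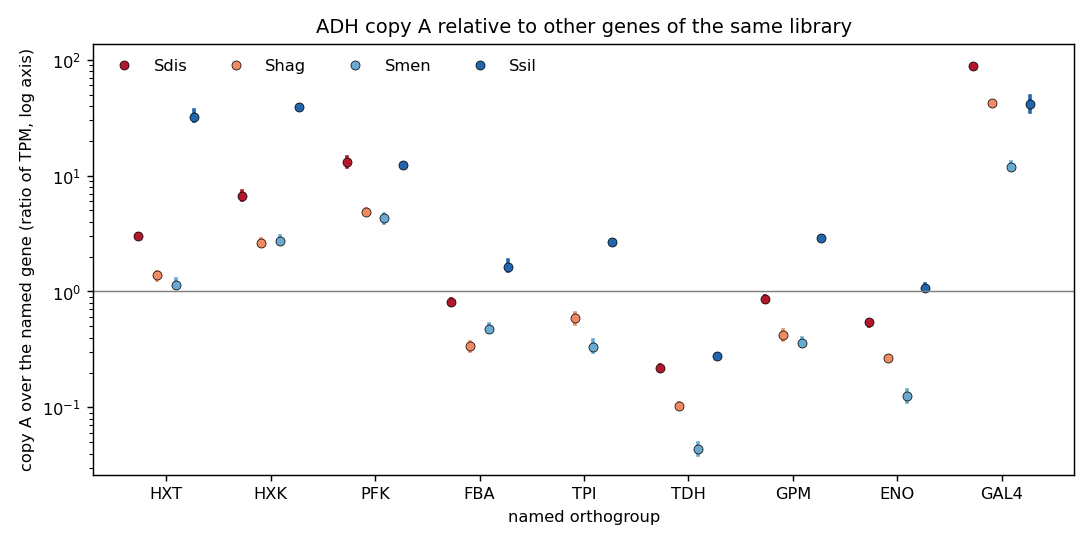
Ratio of copy A to each named orthogroup within a library (vertical log axis), with the mean as a point and the range over 4 libraries as a line, for Sdis, Shag, Smen and Ssil. Ssil is highest for all but *PFK* and *GAL4*. For *ENO* it is at 1.01 to 1.15, against 0.51 to 0.57 in Sdis. The *HXT* value is over 1 gene in Sdis and Shag and over 2 genes in Smen and Ssil. The *PFK* value is over 2 genes in each species, with 2981 codons summed in Smen and 1914 to 1937 in the others.

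Over the 16 libraries, which fall into 4 species and are not independent points, the log2(TPM + 1) of *ADH* had a Pearson r of 0.82 with *PFK*, 0.70 with *FBA* and with *TDH*, 0.60 with *GAL4*, 0.40 with *GPM*, 0.36 with *ENO*, 0.13 with *HXK* and -0.05 with *HXT*. The TPM of *PFK* has a longer divisor in Smen, 2981 codons against 1914 to 1937 in the other species, which enters its r. The 5 orthogroups most like *ADH* had r between 0.978 and 0.989, 64 of the 4231 others had an r of at least 0.9, and 70 had an r of at most -0.9. The files do not pair these 5 with gene names. The first, OG0002624, averaged 94.6 ± 14.7 TPM for Sdis, 43.6 ± 3.13 TPM for Shag, 6.74 ± 0.78 TPM for Smen and 107 ± 6.18 TPM for Ssil (SD, n = 4 each). The second, OG0004511, averaged 52.8, 14.9, 0.53 and 37.0 TPM for Sdis, Shag, Smen and Ssil. Both had the order in which Smen is lowest and Shag lies between Smen and the other species. Their choice by r with *ADH* favours this order, so it is no separate result.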

How the data were processed

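The deposited counts per gene are expected counts: the authors trimmed reads with Trimmomatic 0.30, aligned them to each species' genome with HISAT2 2.1.0 and counted with HTSeq 2.0.3, and pairs that fit several genes were shared in fractions. The deposited TPM of an OrthoFinder orthogroup comes from the authors' use of edgeR on the counts and lengths of its genes, both added up. Rows without a gene, 4.10% to 19.0% of all counts in a library, were left out.

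Genes were linked to orthogroups where 1 gene, or the sum of up to 4 genes, had the proportions of the TPM row within 1e-08. This linked 4775 of 4812 orthogroups with a value in Sdis, 4800 of 4840 in Shag, 4590 of 4615 in Smen and 4582 of 4611 in Ssil. Of single-gene lengths, 99.59% to 99.94% were whole codons within 0.001. A copy value is its count scaled by the library's TPM constant and the mean copy length of the orthogroup, so the mean over copies is the orthogroup TPM.

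Species were compared on log2(TPM + 1) with limma 3.58.1 (R 4.3.3), using an intensity trend and an adjusted p of 0.05. Orthogroups entered if each species had a value above 0 and the mean over libraries reached 5 TPM. Alternatives were other pseudocounts (0.1 and 10), no filter or one of 50 TPM, rescaling by the median ratio, quantile normalization, CPM without gene length, no trend, only the species compared, a replicate block, species means as samples, each library left out, and, on counts rounded to whole numbers with length as offset, edgeR 4.0.16 and DESeq2 1.42.0. For CPM, edgeR and DESeq2, 4203 linked orthogroups were used, and copy A was fitted with the Ssil gene in edgeR and DESeq2. The linking and the fits were tested on simulated data. No 2 replicates agreed within sampling noise (chi-square per degree of freedom 4.40 to 333 over 24 pairs).

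The named genes are *ADH* and its copies, the genes the study names by ID, and the 5 orthogroups with the highest Pearson r with *ADH*. The members, lists and tests were chosen with earlier results of these data known.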

Additional observations from a re-analysis of the deposited data

Results flagged for a closer look

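One value stood apart from its group. Copy B in Sdis replicate 3 was at 1.24 TPM, from 15 counts, while the other 3 Sdis libraries had 7 to 9 counts, and the gap was 0.887 of the range of the 4 libraries, above Dixon's 95% critical value for 4 values. This was 1 of 28 groups of 4 libraries looked at, and chance gives about 1 in 20.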

How the results depend on the processing

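Depth limited only copy B in Sdis, with 7 to 15 counts per library. Under other settings, 302 values kept direction and call and 22 turned, with or without a change of call. Of the values that did not turn, 7 lost and 1 gained a call. With 1 library left out these were 496, 5, 11 and none. For *ADH*, Sdis minus Ssil was 1.04 with the median ratio, -0.83 with quantile normalization, 0.31 with CPM, 1.001 with edgeR and 1.05 with DESeq2, all called. For copy A it was 1.04 with the median ratio, -0.20 with quantile normalization (not called), 0.32 with CPM, 1.01 with edgeR and 1.06 with DESeq2. For copy B, Shag minus Ssil was 0.46 with the median ratio, 0.62 with quantile normalization, 0.093 with CPM (not called), 0.51 with edgeR and 0.52 with DESeq2. For copy C, Sdis minus Ssil was 0.78 with the median ratio, 0.74 with quantile normalization, 0.057 with CPM (not called), 0.74 with edgeR and 0.79 with DESeq2, and Shag minus Ssil was 0.045, 0.14, 0.033 and 0.050 with the median ratio, quantile normalization, edgeR and DESeq2, none called. The class difference of copy C was -0.49, -0.40, -0.83, -0.50 and -0.48 with the median ratio, quantile normalization, CPM, edgeR and DESeq2, and -0.98 with the 4 species means as samples, none called. Its difference Sdis minus Shag, 0.31, was not called with only these species (adjusted p = 0.0811). Rescaling by the median ratio removes most of the shift of the median orthogroup by construction. Quantile normalization, edgeR and DESeq2 took out most of it too. For Sdis minus Ssil the median orthogroup was at -0.067, -0.056 and -0.008 with them, against -1.06 on the TPM scale and -0.72 with CPM. These settings are thus not separate from the rescaling. The cause of the changes in each setting was not tested.

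Leaving out 1 library at a time gave -0.097 to 0.013 for *ADH* and -0.089 to 0.022 for copy A (Sdis minus Ssil), -0.33 to 0.065 for copy B (Shag minus Ssil), and, for copy C, 0.22 to 0.37 (Sdis minus Shag), -0.37 to -0.22 (Sdis minus Ssil) and -1.03 to -0.95 (class). The sign for *ADH* and copy A turned without Sdis replicate 2 or Ssil replicate 1, none called. All other differences and shares kept direction and call. The ratios to other genes kept 47 or 48 separated combinations, but an exact permutation test of 3 libraries against 4 cannot pass the threshold. Windows of 5 and 20 genes made the same 15 pairs of copies.

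Copy B has no value with a filter of 50 TPM, and the class was not run with only the species compared. Replicate numbers gave no clear pairing of the libraries, though pairing was not tested. Correlations of deviations between same-numbered libraries ran from -0.33 to 0.38, and 8 of 24 were over 0.1. Of 16 libraries, 6 correlated best with their own number. A replicate block changed no call (*ADH*, Sdis minus Shag: 0.99, adjusted p = 4.21e-06).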
